A study of Arabidopsis thaliana with 23 samples.

Results

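The genes described here encode the middle and last enzymes of jasmonate synthesis in *Arabidopsis*: *AOS*, *AOC1* to *AOC4*, *OPR1* to *OPR3*, *OPCL1* and *JAR1*. They were chosen by name and not by a measured value, though with earlier results of these data known. They make up 10 of the 37899 loci annotated on the 5 nuclear chromosomes. For each locus the deposited peak lists of a ChIP-Seq experiment were searched for H4ac (acetylation of the histone H4 tail) and H3K27me3 (trimethylation of lysine 27 of histone H3). The study set whole seedlings of *axe1-5*, a mutant of the histone deacetylase gene *HDA6*, against its parental control, named DR5 and of Col-0 background (WT). Both genotypes were grown for 12 days in vitro and moved to 50 µM methyl jasmonate (MeJA) or to mock plates without it for 3 h. Each genotype was thus sampled with and without MeJA, with 2 biological replicates. For H4ac 8 lists were used, and for H3K27me3 7, since WT +MeJA was represented by replicate 2 alone. The mutant effect rests on a single allele, and in whole seedlings a mark in more cells cannot be told apart from more of the mark per cell.

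Jasmonates are lipid hormones that plants make from α-linolenic acid on wounding, on attack and in flower development. In the plastid a lipoxygenase oxidises the fatty acid, allene oxide synthase (AOS) turns the hydroperoxide into an unstable allene oxide, and allene oxide cyclase (AOC) closes its ring to give OPDA. In the peroxisome OPDA reductase (OPR3) reduces OPDA, the ligase OPCL1 attaches coenzyme A to the product, and β-oxidation shortens it to jasmonic acid. JAR1 joins the acid to isoleucine, which gives the form that the COI1 receptor binds. H4ac is typical of transcribed genes, whereas H3K27me3 is the mark of Polycomb-repressed chromatin.

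The value of a locus was the highest fold enrichment over input among the peaks whose summit, the point of most reads, lay in it. Where no summit was listed the value is 0, which does not show that the mark was missing. The H4ac libraries kept 3235473 to 14717755 tags and their lists held 12065 to 15727 peaks, with the median fold enrichment of a list from 5.9 to 10.7. Untreated WT had the 2 lowest depths (5927987 and 3235473 tags), and for replicates 1 and 2 WT had list medians of 5.9 and 6.83, WT +MeJA of 9.2 and 9.98, *axe1-5* of 6.12 and 9.38, and *axe1-5* +MeJA of 8.32 and 10.7. The H3K27me3 libraries ranged more widely, from 577986 tags in WT +MeJA to 8879066. All 5 genes chosen as active in green seedlings (*ACT7*, *UBQ10*, *RBCS1A*, *LHCB1.3*, *PSBO1*) had an H4ac summit in some list and none of H3K27me3, and all 4 chosen as silent regulators (*AG*, *FUS3*, *LEC2*, *STM*) had the reverse. Only *UBQ10* and *LHCB1.3* had the H4ac summit in all 8 lists, with *ACT7* in 6, *RBCS1A* in 5 and *PSBO1* in 3. The H3K27me3 summit was in 7 of 7 lists at *AG*, *FUS3* and *LEC2* and in 6 at *STM*.

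*AOC1*, *AOC2* and *AOC3* lie head to tail on the plus strand of chromosome 3, at 9403779 to 9405338, 9406669 to 9408071 and 9409160 to 9411090 (TAIR10), with 1330 and 1088 bp between neighbours. *AOC4* is on chromosome 1 at 4547388 to 4548894. The coding sequences of *AOC1* and *AOC2* were 90.3% identical, those of *AOC1* and *AOC3* 83.2% and those of *AOC2* and *AOC3* 82.4%, and *AOC4* shared 74.9% to 80.2% with the others. How alike the copies are where reads piled up is shown by the 30 coding bases centred on the H4ac summit of *AOC2* in WT +MeJA replicate 1 and the stretches aligned to them, read on the plus strand from the reference genome. Capitals mark bases that differ from *AOC2*.
AOC2, chr3:9407621-9407650: ggtggtgctggaatctttgaaggtgcctac
AOC1, chr3:9404887-9404916: ggtggCgctggaatctttgaaggtgcctac
AOC3, chr3:9410191-9410220: ggtggCTctggaatctttgaaggtgcGtac
AOC4, chr1:4548334-4548363: ggtggCTcCggCGtGtttgaaggAgcTtaT
The 30 bases of *AOC1* differed from *AOC2* at 1 position, those of *AOC3* at 3 and those of *AOC4* at 9. Of the 51-base windows of each locus, the length of the mapped tags, 2.52% of *AOC1* and 1.22% of *AOC3* occurred again elsewhere in the genome, and none of *AOC2* or *AOC4*. Windows that differ by 1 or a few bases were not counted, so the share of reads that could be misplaced among the copies may be larger.

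*OPR1* (chromosome 1, 28776626 to 28778837) and *OPR2* (28778622 to 28780483) are also tandem copies. Their annotated ends overlap by 216 bp, their coding sequences were 91.6% identical, and 3.84% and 4.58% of their 51-base windows occurred elsewhere. *OPR3* was 67.1% identical to each of them. The other loci had no repeated window and stand alone: *OPR3* on chromosome 2 at 2359114 to 2362375, *AOS* on chromosome 5 at 17097564 to 17099595, *OPCL1* on chromosome 1 at 7103362 to 7106121 (all 3 on the minus strand) and *JAR1* on chromosome 2 at 19033586 to 19036683.

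The G-box CACGTG, a hexamer that MYC factors of the jasmonate response bind, was searched in the 1000 bases before each annotated start, where a match on one strand is a match on both. It occurred before 2 of the 10 loci, against 13.4% of all loci and 14.8% of protein-coding ones. The matches, in capitals, are shown on the strand of the gene with 12 bases to either side.
AOS, chr5:17099584-17099613, minus strand: aaagagtcaaagCACGTGgctaaatgaatc
OPR1, chr1:28776078-28776107, plus strand: tcctgacttctcCACGTGcatcatagctag
The match of *AOS* abutted the annotated start, and the first base of that of *OPR1* lay at -536 from it.

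All 10 loci had an H4ac summit in at least 1 of the 8 lists, as did 19351 of all loci, and 6 of them (*AOS*, *AOC3*, *AOC4*, *OPR1*, *OPR3* and *OPCL1*) had one in all 8, as did 8227 of all loci.

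**Figure D1:**
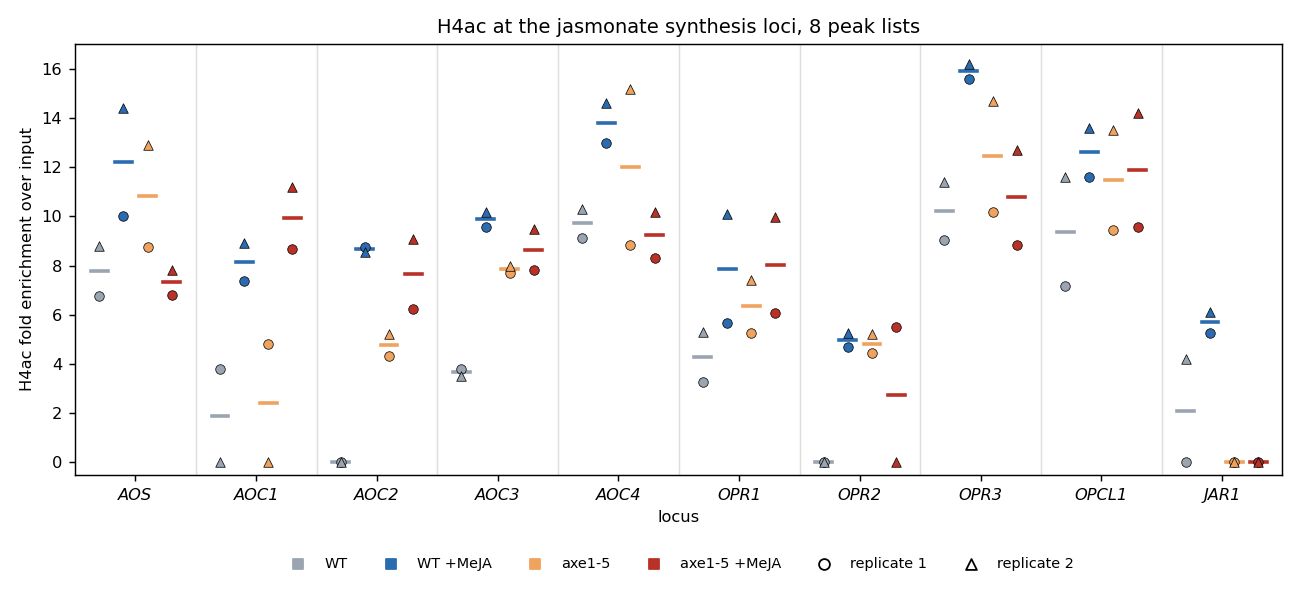
H4ac fold enrichment over input (vertical axis) of the 10 loci in 8 peak lists; circles are replicate 1, triangles replicate 2, bars the mean of 2, and 0 stands for no listed summit. *AOC2* and *OPR2* are at 0 in both WT lists, *JAR1* is at 0 in all 4 *axe1-5* lists, and *OPR3* reaches the highest value, 16.2 in WT +MeJA.

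*AOS* (AT5G42650), the entry enzyme of the branch, carried H4ac in every list. For replicates 1 and 2 in turn, WT had a fold enrichment of 6.75 and 8.78, WT +MeJA had 10.0 and 14.4, *axe1-5* had 8.74 and 12.9, and *axe1-5* +MeJA had 6.81 and 7.83. Within WT both MeJA lists were above both mock lists (mean difference 4.42), and within *axe1-5* both were below (mean difference -3.5). Of all genes with an H4ac summit, 3.07% were higher without overlap in WT and lower without overlap in *axe1-5*. Whether the response differed between genotypes was not tested.

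The *AOC* genes, which encode the cyclase, fell into different patterns. For *AOC1* (AT3G25760), WT had 3.78 and 0, WT +MeJA had 7.37 and 8.9, *axe1-5* had 4.83 and 0, and *axe1-5* +MeJA had 8.68 and 11.2. All 4 MeJA lists were above all 4 mock lists. For *AOC2* (AT3G25770), WT had no summit in either list, WT +MeJA had 8.76 and 8.57, *axe1-5* had 4.32 and 5.22, and *axe1-5* +MeJA had 6.23 and 9.09. Here too the MeJA lists lay above the mock lists, and the untreated mutant lay between untreated and treated WT.

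*AOC3* (AT3G25780) had summits in all lists: WT had 3.81 and 3.53, WT +MeJA had 9.58 and 10.2, *axe1-5* had 7.69 and 8.0, and *axe1-5* +MeJA had 7.81 and 9.5. The WT lists stood below the other 6, and the lists of *axe1-5* with and without MeJA overlapped. *AOC4* (AT1G13280), outside the tandem cluster, was high already in the WT lists at 9.13 and 10.3, and WT +MeJA had 13.0 and 14.6. The mutant had 8.84 and 15.2 without and 8.3 and 10.2 with MeJA, so that the 2 replicates of *axe1-5* differed by more than WT and WT +MeJA did on average (4.08).

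**Figure D2:**
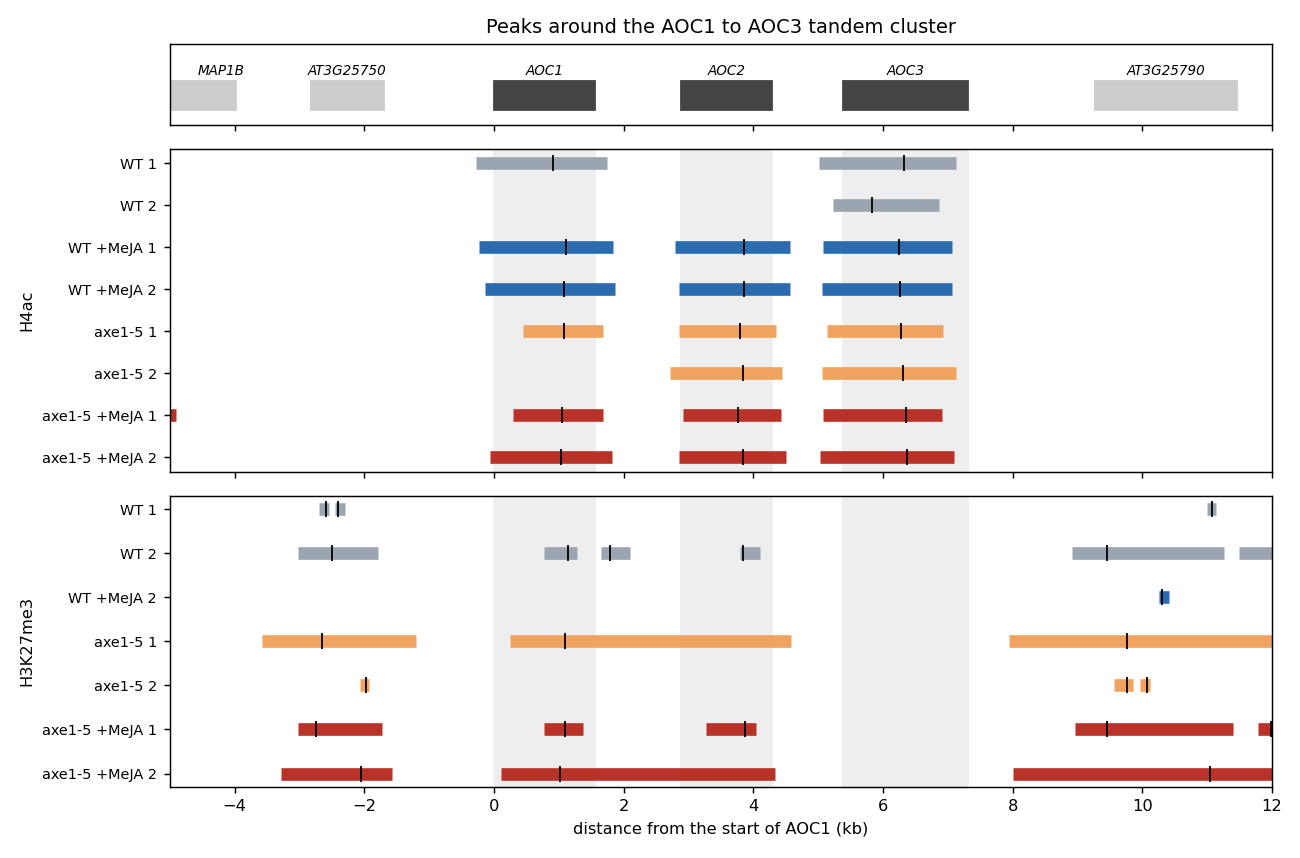
Listed peaks around *AOC1* to *AOC3* by distance in kb from the start of *AOC1* (horizontal axis), for the 8 H4ac lists and the 7 H3K27me3 lists (rows); bars are peaks, ticks are summits and shaded columns are the 3 loci. No H4ac peak lies over AT3G25750 or AT3G25790, the genes on either side, *AOC2* has none in WT, and 2 H3K27me3 peaks of 4337 and 4231 bp span *AOC1* and *AOC2*.

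AT3G25750 on one side of the cluster and AT3G25790 on the other had no H4ac summit in any of the 8 lists. Beyond AT3G25750, *MAP1B* had one in 7 of 8 lists at 4.54 to 7.55. Both had H3K27me3 summits, AT3G25790 in 7 of 7 lists at 7.58 to 16.5 and AT3G25750 in all but WT +MeJA at 6.88 to 10.6.

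*OPR3* (AT2G06050), the reductase that acts on OPDA in jasmonate synthesis, had the highest mean H4ac of the 10 loci. WT had 9.06 and 11.4, WT +MeJA had 15.6 and 16.2, *axe1-5* had 10.2 and 14.7, and *axe1-5* +MeJA had 8.84 and 12.7. WT +MeJA was above every other list, and the lists of the mutant overlapped. *OPR1* (AT1G76680), a cytosolic reductase of a different group, was lower: WT had 3.28 and 5.29, WT +MeJA had 5.66 and 10.1, *axe1-5* had 5.26 and 7.42, and *axe1-5* +MeJA had 6.06 and 9.99.

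*OPR2* (AT1G76690), its tandem copy, had no summit in WT. WT +MeJA had 4.69 and 5.28, *axe1-5* had 4.43 and 5.21, and *axe1-5* +MeJA had 5.52 and 0. The last 0 does not mean a bare locus: a single peak of 3872 bp with its summit in *OPR1* covered *OPR2* as well, and counting any overlapping peak gave *OPR2* 9.99 in that list. Peaks over *OPR2* also reached the end of *OPR1* in the other 5 lists with one.

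For *OPCL1* (AT1G20510), the coenzyme A ligase, WT had 7.16 and 11.6, WT +MeJA had 11.6 and 13.6, *axe1-5* had 9.45 and 13.5, and *axe1-5* +MeJA had 9.58 and 14.2. Replicates differed by about as much as groups did. *JAR1* (AT2G46370), which makes the active conjugate, had the least H4ac. WT had 0 and 4.22, WT +MeJA had 5.26 and 6.12, and the value was 0 in all 4 lists of *axe1-5* with or without MeJA. No H4ac peak overlapped *JAR1* in those 4 lists, whose libraries kept 7025483 to 14717755 tags, more than either untreated WT library. The WT +MeJA libraries kept 8700467 and 9840934 tags, more than those of untreated *axe1-5* (7025483 and 7222121). Some of the genes chosen as active also had no overlapping H4ac peak there, *RBCS1A* and *PSBO1* in both *axe1-5* +MeJA lists and *ACT7* in replicate 2 of *axe1-5* and of *axe1-5* +MeJA. What part these libraries had in the values of *JAR1* was not tested. Beyond its end, a separate H4ac peak that started 2169 to 2383 bp downstream was 1678 to 1838 bp long in 5 lists and 6252 to 6475 bp long in *axe1-5* replicate 2 and both *axe1-5* +MeJA lists. In *axe1-5* +MeJA replicate 1 a further peak of 1311 bp, with a fold enrichment of 6.9, started 680 bp downstream.

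The first question of the design is which genes gained H4ac against untreated WT. By the study's rule, a gene gained a mark when a summit was listed in the condition and none in the control, or when the fold enrichment was at least 2 times that of the control, in both replicates. Condition and control were matched here by replicate number. Under this rule *AOC2*, *AOC3* and *OPR2* gained H4ac in WT +MeJA, 3 of 10 loci where 10.2% of all genes with a summit did. The same 3 gained it in *axe1-5* without MeJA (8.23% of all genes), and *AOC1*, *AOC2* and *AOC3* did in *axe1-5* +MeJA (17.1%). *AOC2* was called in all 3 comparisons, and *OPR2* in WT +MeJA and *axe1-5*, with no summit in the control. When any overlapping peak was counted, *OPR2* was gained in *axe1-5* +MeJA as well. By this rule no member lost H4ac against WT, where 0.847% of all genes did with MeJA, 1.46% with the mutation and 3.91% with both. *JAR1* was called lost in *axe1-5* and in *axe1-5* +MeJA when replicates were averaged rather than matched, or when replicate 1 was left out. Untreated WT had no *JAR1* summit in replicate 1. The 3 comparisons share the untreated WT lists, whose low depth and low list medians are given above. The part of these in the calls was not tested.

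Several loci lay close to the 2-fold limit. *AOC1* in WT +MeJA reached 1.95 times WT in replicate 1 and had no control summit in replicate 2, and so fell just outside. *AOC3* in *axe1-5* was just inside, at 2.02 and 2.27, and in *axe1-5* +MeJA at 2.05 and 2.69. After each value was divided by the median of its list, *AOC3* no longer passed in any of the 3 comparisons (1.61 and 1.98 in WT +MeJA). *AOC2* passed in all 3, but with no summit in either untreated WT list its call could not change by such a division. The same holds for *OPR2* in WT +MeJA and *axe1-5*. When peaks scoring under 100 were dropped, *AOC2* and *OPR2* were not called in *axe1-5*, and *AOC3* was the 1 locus left. The same limit removed *OPR2* in WT +MeJA, where *AOC1* came in, and *AOC2* in *axe1-5* +MeJA. Lists of equal length likewise left out *OPR2* in WT +MeJA and *AOC2* in *axe1-5* +MeJA.

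Within the mutant, MeJA brought no gain and no loss at the 10 loci by this rule, where 5.08% of all genes gained and 3.65% lost H4ac. Between the treated genotypes, *JAR1* lost H4ac in *axe1-5* +MeJA against WT +MeJA (7.46% of all genes) and no member gained it (8.41%). When any overlapping peak was counted instead of a summit, *JAR1* was lost as well. It was not called when peaks scoring under 100 were dropped, since its own peaks scored 58.6 to 98.0, and *AOC2* was lost in its place. With lists of equal length no member was lost.

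Over all 8 lists, the mean of the 4 MeJA lists was above that of the 4 mock lists at 10 of 10 loci. The median difference was 1.91, against 2.44 over the 19351 genes with an H4ac summit, so most genes were higher with MeJA too. Divided by the list median, the difference was negative at *AOS*, *AOC4*, *OPR3* and *OPCL1*. The MeJA lists did not overlap the mock lists at *AOC1* and *AOC2*, 2 of 10 loci, where 10.9% of all genes were higher and 0.0775% lower without overlap. *AOC1* had 2.15 ± 2.52 in the mock lists and 9.05 ± 1.61 in the MeJA lists (SD, n = 4 lists each, difference 6.9). *AOC2* had 2.38 ± 2.78 and 8.16 ± 1.31 (SD, n = 4 lists each, difference 5.78). Both had p = 0.0286 in an exact permutation test (two-sided), the smallest that 70 arrangements can give. After Benjamini-Hochberg adjustment over all genes the exact permutation p was 0.26 for both, so neither passed. No gene of the 19351 passed after adjustment, and 2125 (11.0%) did before it. The 8 other loci had exact permutation p of 0.0571 (*AOC3*, difference 3.52) to 0.857. Without *axe1-5* replicate 2, 4 loci were without overlap (*AOC3* and *OPR1* in addition), and with peaks of a score of at least 100 *AOC2* overlapped and *AOC1* alone remained. Fewer lists separate more easily, and the share of all genes is not given for these alternatives, so the 4 loci cannot be read against it.

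Between genotypes, no locus separated the 4 *axe1-5* lists from the 4 WT lists, where 3.28% of all genes were higher and 0.667% lower without overlap. *JAR1* showed the largest difference, from 3.9 ± 2.71 in WT to 0 in the mutant (SD, n = 4 lists each), with p = 0.143 by exact permutation, as 1 WT list was also at 0. That list, WT replicate 1, was the only WT list at 0, so leaving it out separates the genotypes at *JAR1* by construction and adds no support. The median genotype difference was 0.896 over the 10 loci and 0.53 over all genes. For this contrast too, 0 genes passed after adjustment and 763 (3.94%) before it.

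Within a genotype the comparison is 2 lists against 2, which cannot give an exact permutation p under 0.333 and is given as a description. In WT both MeJA lists were above both mock lists at 10 of 10 loci, and so they were at 66.2% of all genes, and below at none (0.749%). In *axe1-5* this held for *AOC1* and *AOC2* (27.2% of all genes), and both MeJA lists were below at *AOS* (4.31%). The high share among all genes goes with the higher list medians of WT +MeJA. For this reason the values were also divided by the median of their list.

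**Figure D3:**
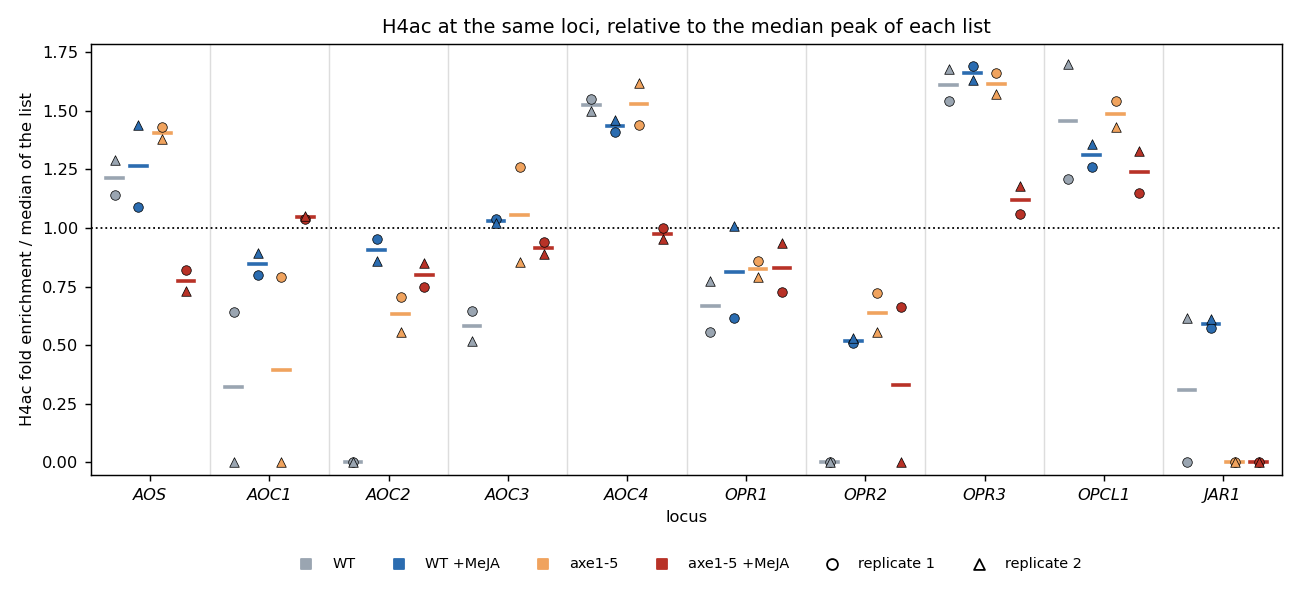
H4ac fold enrichment divided by the median of its list (vertical axis) for the same 10 loci and 8 lists, with the dotted line at the median peak; circles are replicate 1, triangles replicate 2 and bars the mean of 2. *AOS*, *AOC4* and *OPR3* are lower in both *axe1-5* +MeJA lists than in the 6 others, while *AOC1* is highest there.

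Relative to the list median, both WT +MeJA lists stayed above both WT lists at 4 loci, *AOC1*, *AOC2*, *AOC3* and *OPR2* (24.5% of all genes), and were below at *AOC4* (8.26%). At *AOC2* and *OPR2* both untreated WT values are 0, so the division could not change this order. In the mutant both MeJA lists stayed above both mock lists at *AOC1* and *AOC2* (19.9%) and were below at *AOS*, *AOC4*, *OPR3* and *OPCL1* (19.3%). *AOC1* in *axe1-5* +MeJA reached 1.04 and 1.05 times the list median, above the 6 other lists (0 to 0.892). *AOC4*, by contrast, had 0.998 and 0.953 there and 1.41 to 1.62 elsewhere. *OPR3* had 1.06 and 1.18 there against 1.54 to 1.69 elsewhere, and *AOS* 0.819 and 0.732 against 1.09 to 1.44. Of the 6 loci with a summit in all lists, these 3 were lower in both *axe1-5* +MeJA lists than in all others, and 10.0% of the 8227 genes were. Without the division 0 of the 6 loci and 0.0486% of genes were. The depth of those libraries, 10569841 and 14717755 tags, was the highest of the 8.

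**Figure D4:**
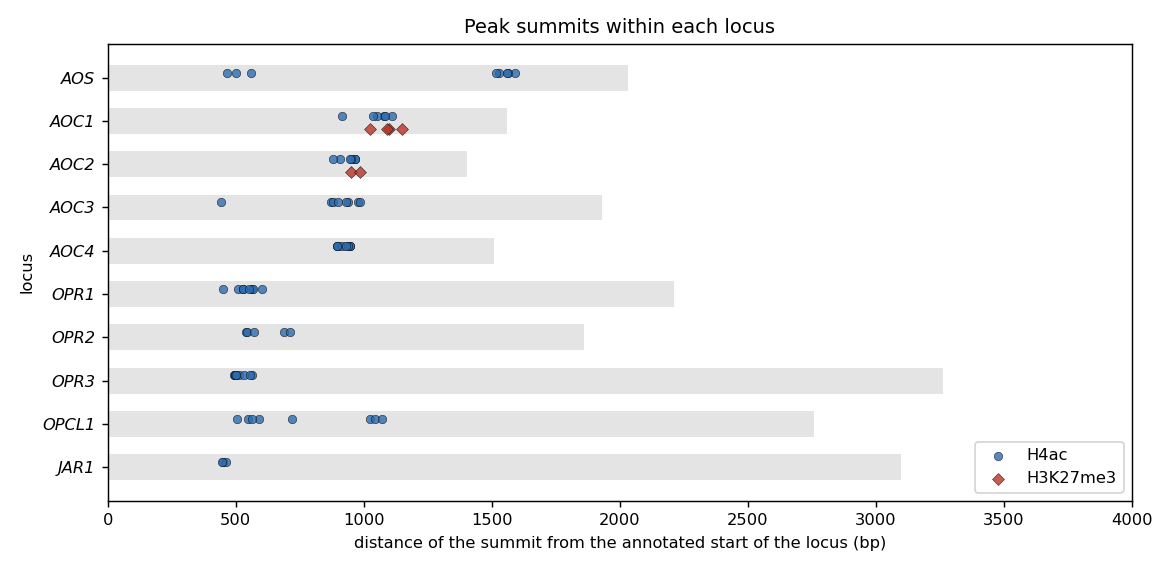
Position of each listed summit (bp from the annotated start, along the gene) within the 10 loci, whose length is the grey bar; circles are H4ac and diamonds H3K27me3. H4ac summits of *OPR3* lie at 494 to 563 bp and those of *AOC4* at 895 to 947 bp, while those of *AOS* and *OPCL1* are spread from 466 to 1589 bp and from 506 to 1071 bp.

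The summits of H4ac sat at similar places in most lists, with *AOS* and *OPCL1* as the exceptions. In *OPR3* they lay 494 to 563 bp from the annotated start, in an intron in 7 of 8 lists. In *JAR1* they lay at 446 to 462 bp in the 5′ UTR in the 3 lists with one. *OPR1* had its summits at 452 to 602 bp and *OPR2* at 541 to 710 bp, mostly in coding exons. In the *AOC* genes they were farther in and all in coding exons, with medians of 1067 bp (*AOC1*), 948 bp (*AOC2*), 915 bp (*AOC3*) and 923 bp (*AOC4*). The exception was *AOC3* in WT replicate 2, at 443 bp with 82 tags, the fewest of its lists.

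*OPCL1* differed in position between MeJA and mock. Its summit was at 1025, 721, 1043 and 1071 bp in the mock lists (WT 1 and 2, *axe1-5* 1 and 2) and at 549, 589, 506 and 564 bp in the MeJA lists in the same order. The mean position was 965 ± 164 bp in the mock lists and 552 ± 34.8 bp in the MeJA lists (SD, n = 4 lists each), and the MeJA mean minus the mock mean was -413 bp. All MeJA summits were nearer the start than all mock summits at 1 of the 6 loci with a summit in every list, and at 1.29% of the 8227 genes, and farther from it at 0 of the 6 loci and 1.81% of genes. This comparison was made after the positions had been seen, so it is given without a test. With the midpoint of the peak instead of the summit the difference was -363 bp, and the lists overlapped. *AOS* had 2 positions as well, 466 to 558 bp in 3 MeJA lists and 1515 to 1589 bp in the 4 mock lists and *axe1-5* +MeJA replicate 2.

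H3K27me3 was listed at 2 of the 10 loci, *AOC1* and *AOC2*, as it was at 6901 of all loci. At *AOC1*, WT had 0 and 12.0, WT +MeJA had 0, *axe1-5* had 7.11 and 0, and *axe1-5* +MeJA had 6.85 and 4.78. At *AOC2*, WT had 0 and 7.51, WT +MeJA had 0, *axe1-5* had 0 and 0, and *axe1-5* +MeJA had 5.19 and 0. Replicates of a group disagreed on whether a summit was listed in WT and *axe1-5* at *AOC1*, and in WT and *axe1-5* +MeJA at *AOC2*.

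The presence of a summit at *AOC1* went with depth. The 4 lists with one came from libraries of 8681380, 8879066, 5464316 and 5540663 tags, and the 3 without from 1976886, 1439377 and 577986. In replicate 1 of *axe1-5* and replicate 2 of *axe1-5* +MeJA a single peak with its summit in *AOC1* covered *AOC2*, so that by overlap *AOC2* was marked in the same 4 lists. The H3K27me3 summits of *AOC1* lay at 1026 to 1148 bp and those of *AOC2* at 951 and 985 bp, which is where the H4ac summits lay (917 to 1109 and 879 to 967 bp). *AOC3*, *AOS*, *OPR1*, *OPR2*, *OPR3*, *OPCL1* and *JAR1* had no overlapping H3K27me3 peak in any list. *AOC4* had none with a summit, but a peak with its summit in the neighbouring *DOT5* reached into it in 2 lists. Its value was 15.3 in *axe1-5* replicate 1 and 15.04 in replicate 2 of *axe1-5* +MeJA. In these same 2 lists, which also hold the long peaks over *AOC1* and *AOC2*, peaks were long in general, with medians of 2911 and 2202 bp. The median was 170 to 717 bp in the other H3K27me3 lists. The fragment size estimated by MACS was 282 and 209 bp there and 52 to 61 bp in the others. What part this had in the peak lengths was not tested.

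**Figure D5:**
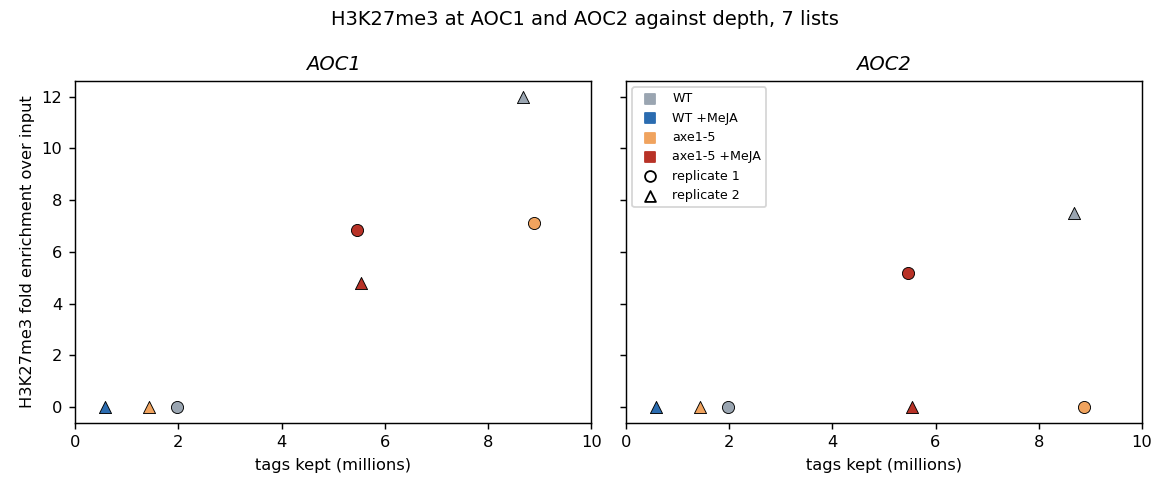
H3K27me3 fold enrichment over input (vertical axis) of *AOC1* and *AOC2* against the tags kept by each of the 7 libraries (horizontal axis); circles are replicate 1, triangles replicate 2, and 0 stands for no listed summit. The 3 libraries with 577986 to 1976886 tags have no summit at either locus.

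By the gain and loss rule, *AOC1* and *AOC2* lost H3K27me3 in WT +MeJA against WT, a comparison of replicate 2 alone in which 64.6% of all genes with a summit were lost. *AOC1* gained it in *axe1-5* +MeJA against WT +MeJA, again in replicate 2, where 59.5% of genes did, and neither locus lost it there (18.1%). Both calls rest on the WT +MeJA library of 577986 tags, and the part of its depth was not tested. In the other 3 comparisons neither locus was called, where 3.42% of genes gained and 2.29% lost the mark in *axe1-5* against WT, 12.3% and 1.96% in *axe1-5* +MeJA against WT, and 4.12% and 1.03% in *axe1-5* +MeJA against *axe1-5*. Over the 7 lists, neither locus separated MeJA from mock (exact permutation p = 0.743 for *AOC1* and 1 for *AOC2*, where 0.130% of genes were higher and 3.35% lower) or *axe1-5* from WT (exact permutation p = 0.914 and 0.714, where 2.19% were higher and 1.80% lower). After adjustment 0 of 6901 genes passed in either contrast, and 187 (2.71%) and 228 (3.30%) did before it.

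Other genes in or beside jasmonate synthesis were read from a list of 22. It holds the lipases, desaturases, lipoxygenases, the transporter *PXA1* and the β-oxidation enzymes. Beside the pathway it holds *HPL1*, whose enzyme per the study competes with AOS for a lipoxygenase product, and *JMT*, which acts on jasmonic acid itself. Of the 22 genes, 20 had an H4ac summit in some list and 5 in all 8. In WT +MeJA 6 of 20 genes with a summit gained H4ac (*DAD1*, *LOX2*, *LOX6*, *HPL1*, *PXA1* and *KAT1*), where 10.2% of all genes did. None of the 20 lost it (0.847% of all genes). In *axe1-5* 1 of 18 gained it (*PXA1*, 8.23% of all genes) and none lost it (1.46%). In *axe1-5* +MeJA 3 of 19 gained it (*DAD1*, *LOX3* and *LOX4*, 17.1% of all genes), and *AIM1* lost it (3.91%). At *DAD1*, which encodes a lipase that frees the fatty acid, WT had 0 and 0, WT +MeJA had 6.63 and 7.1, *axe1-5* had 4.67 and 0, and *axe1-5* +MeJA had 7.47 and 9.54. *LOX4*, a lipoxygenase, had no summit in either WT +MeJA list and values of 9.26 and 9.86 in *axe1-5* +MeJA. Peaks with their summit outside the locus overlapped it, however, and by overlap *LOX4* had 10.8 and 12.4 in WT +MeJA and 9.26 and 11.5 in *axe1-5* +MeJA, with 5.03 and 7.07 in WT, so that it was gained in neither comparison. *LOX6* was likewise not gained in WT +MeJA by overlap (5.52 in WT replicate 1 and 8.43 in WT +MeJA replicate 1).

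Like *JAR1*, the β-oxidation genes *AIM1*, *ACX4* and *MFP2* and also *FAD8* and *LOX2* were listed at 0 in both *axe1-5* +MeJA lists. So were *DGL* and *JMT*, which had no H4ac summit in any list, and *RBCS1A* and *PSBO1* of the genes chosen as active. *AIM1* had 5.1 to 8.24 in the 6 other lists. With MeJA in both genotypes, 5 of 20 genes with a summit (*FAD8*, *LOX2*, *ACX4*, *MFP2* and *AIM1*) were lost in the mutant, where 7.46% of all genes were. *LOX4* was gained by its summits (8.41% of all genes) but not by overlap. Within the mutant, 2 of 20 (*ACX4* and *AIM1*) were lost with MeJA (3.65% of all genes) and none was gained (5.08%). H3K27me3 summits were listed at 6 of the 22 genes, *DAD1*, *DGL*, *LOX2*, *LOX3*, *HPL1* and *JMT*. *DGL*, a galactolipase, had one in 7 of 7 lists at 11.1 to 33.4 and no H4ac summit, and *JMT*, which methylates jasmonic acid, had one in 6 of 7 and likewise no H4ac summit.

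For the 6 loci with H4ac in every list, the genes whose values followed theirs most closely over the 8 lists were picked from the 8227 with a summit in all. *AOC4* was nearest to *PSAD-1*, a photosystem I subunit (Pearson's r = 0.993), *ERF7* (0.991) and AT2G39580 (0.987), and *AOS* to AT5G60460 (0.992), AT3G57790 (0.971) and AT2G36320 (0.97). *OPR3* was nearest to AT5G59830 (0.987), *EXO70B1* (0.985) and AT1G48490 (0.983), and *OPCL1* to AT1G74050 (0.982), *MYR1* and AT5G18245 (both 0.98). *OPR1* was nearest to AT3G10630 (0.983), *RUS3* and AT1G20490 (both 0.981), and *AOC3* to AT1G79390 (0.985), AT2G05632 (0.967) and AT4G26600 (0.963). With 8 points that share the depth of their libraries and the best 3 taken of 8227, such values are a description only. None of the nearest genes was another of the 10 loci.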

How the data were processed

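The files were 15 peak lists, 1 for each antibody library. Per the methods of the study, reads were trimmed with Trimmomatic (0.36.5 in the submitters' processing notes), aligned to TAIR10 with Bowtie, and set against an input library in MACS 1.4.2, each replicate separately, with a p-value limit of 1e-05. Per the file headers, tags at duplicate positions were removed and the effective genome size was 1.35e+08 bp. The deposited columns hold the tag count of each peak, a score (−10 times the log10 of the MACS p-value), the fold enrichment (the ratio of the summit's height to the local level expected from the input) and an FDR in percent, all computed by the authors. The lists were not brought to a common depth, and fold enrichment and the chance that a peak is listed depend on the depth of library and input. The 8 input libraries, which with the lists make 23 samples, were used only through these ratios.

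Loci came from the TAIR10.1 annotation, whose nuclear chromosomes end beyond the last peak in every case. 2 peaks on organelles were left out. A gene gained a mark by the study's rule for differences from untreated WT, a peak only in the condition or a 2-fold enrichment in both replicates. Loss (the rule reversed), the matching of lists by the replicate number of the labels, and the 2 comparisons not against WT are extensions made here. The 4 contrasts over all lists were tested by exact permutation with Benjamini-Hochberg adjustment over all genes with a summit. Shares of all genes are the background for counts of members. The rule and the test were tried on simulated lists. Coding sequences were aligned with Biopython 1.88. Other tools were Python 3.11.15, numpy 2.4.6, pandas 2.3.3, scipy 1.17.1 and matplotlib 3.10.9.

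All 10 members are named in the text. Of the 22 other genes, those that gained or lost a mark or held an H3K27me3 summit are named, and for members with H4ac in all lists the 3 most like genes. The members and lists were chosen with earlier results of these data known. Alternatives were an FDR of at most 5%, a score of at least 100, lists of equal length, overlap of 1 bp, 2000 bp upstream, the mean, division by the list median, tags scaled by peak length and depth, limits of 1.5 and 3, other matching of replicates and leaving lists out. Crossed replicate numbers, the position of summits by treatment, and the comparisons of *axe1-5* +MeJA with the 6 other lists and of MeJA with mock within a genotype were added after the data had been seen.

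Same-numbered replicates did not deviate together: the correlation of their deviations from the group means was -0.123 to 0.0622 over the comparisons. No source says that a number marks a shared batch.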

Additional observations from a re-analysis of the deposited data

Results flagged for a closer look

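H4ac at *AOS* moved in opposite directions in the genotypes: MeJA minus mock was 4.42 in WT and -3.5 in *axe1-5*, and in each genotype the MeJA and mock lists did not overlap. The difference between the genotypes was not tested. This pattern was found at 3.07% of all genes with an H4ac summit. After division by the list median the WT lists overlapped (difference 0.0486) and the *axe1-5* lists did not (difference -0.627).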

How the results depend on the processing

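Depth limits every count: a missing summit in the shallower libraries does not show that the mark was absent, fold enrichments of different lists are not on a common scale, and H3K27me3 in WT +MeJA has 1 library. Of the alternatives tried for counts, 162 stayed within 1.5 times the count reported and 42 did not. The cause of a change was not tested unless given.

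For H4ac gains and losses, WT +MeJA against WT gave 5 loci with an FDR of at most 5% (*AOS* and *OPCL1* as lost, because their peaks in WT +MeJA have an FDR above it), 5 at 1.5-fold and 5 with no replicate block. *axe1-5* against WT gave 1 with a score of at least 100 and 1 with 2000 bp upstream added (*AOC3* each time). *axe1-5* +MeJA against WT gave 1 (*AOC2*) when divided by the list median, with tags scaled by peak length and depth, and at 3-fold. *AOC2* has no summit in untreated WT, so none of these settings could remove it. With no replicate block the same comparison gave 5, of which 4 were gained and *JAR1* was lost. Within *axe1-5*, MeJA gave 1 (*AOC1*) with a score of at least 100, lists of equal length, 1.5-fold or no replicate block. *axe1-5* +MeJA against WT +MeJA gave 3 with an FDR of at most 5%, 0 with lists of equal length and, with a score of at least 100, *AOC2* in place of *JAR1*. For H3K27me3, WT +MeJA against WT gave 1 with a score of at least 100 and 0 with lists of equal length. *axe1-5* against WT and *axe1-5* +MeJA against *axe1-5* each gave 1 with no replicate block, and *axe1-5* +MeJA against WT +MeJA gave 3 by overlap of 1 bp, 2 with 2000 bp upstream and 2 with no replicate block. Without replicate 1 or 2 the H4ac counts, gains and losses together, were 4 to 4 in WT +MeJA, 3 to 4 in *axe1-5* and 4 to 4 in *axe1-5* +MeJA against WT, 0 to 2 within *axe1-5* and 1 to 2 between treated genotypes. Without replicate 1, *JAR1* was counted as lost in *axe1-5* and in *axe1-5* +MeJA against WT. The counts of H3K27me3 were 2 to 2 in WT +MeJA, 1 to 2 in *axe1-5* and 2 to 2 in *axe1-5* +MeJA against WT, 1 to 1 within *axe1-5* and 1 to 1 between treated genotypes, where only replicate 2 gives a value. In the 2 H3K27me3 comparisons with the most negative correlations (-0.123 and -0.118), crossed replicate numbers, added after the data had been seen, gave 0 and 0.

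For the number of loci whose H4ac was without overlap between MeJA and mock, a score of at least 100, lists of equal length and tags scaled by peak length and depth gave 1 each (*AOC1*). Exchanging lists only within a replicate number (replicate block) gave 5, with 2 to 6 when a replicate or a list was left out (4 without *axe1-5* replicate 2), the latter with fewer lists to overlap. Shares of all genes are not given for these counts, so they are no result about the members. For the H4ac genotype contrast, leaving out gave 0 to 1, and the H3K27me3 contrasts gave 0 to 1 each. The replicate block changed no other contrast.

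The MeJA difference in H4ac of single loci turned negative at *AOS* (-5.63) and *OPCL1* (-4.46) with an FDR of at most 5%, and at *OPR2* (-1.03) with lists of equal length. Divided by the list median it did so at *AOS* (-0.289), *AOC4* (-0.323), *OPR3* (-0.22) and *OPCL1* (-0.196), and with tags scaled by peak length and depth at *AOS* (-1.7), *AOC4* (-3.38), *OPR1* (-0.57), *OPR3* (-3.8) and *OPCL1* (-5.66). With a list left out it ran from -1.08 to 1.66 at *AOS* and from -0.358 to 2.1 at *AOC4*. It stayed positive at *AOC1*, *AOC2* and *AOC3* under every alternative run.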
